A study of Mus musculus with 21 samples.

Results

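Transcripts of 10 genes of tendon and of the myotendinous junction were examined in the mouse gastrocnemius, out of 40853 genes counted. They were chosen by gene symbol as a group of known function, and they were Tnmd, Thbs4, Comp, Scx, Mkx, Fmod, Prelp, Chad, Kera and Cilp2. RNA came from the whole medial belly of the muscle of 21 female C57BL/6NJ mice, with 1 poly(A) library per mouse and 7 mice per group. All mice were of that inbred strain, were 10 weeks old at the start, and performed a maximal running test before the tissues were collected in the fasted state. The Inactive group was housed without training. The Active group ran on a treadmill for 6 weeks, in 5 sessions per week that reached 40 min each, a slow warm-up included, with the main run at about 70% of maximal speed, and the Activity Reduction group ran in this way for 4 weeks and then stopped for 2 weeks. The study asked which muscle transcripts change when training stops, compared with continued training and with no training. Counts of the 10 genes also describe each sample of muscle, but how much tendon it held was not recorded in the sources used here.

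Tendon is made by fibroblasts, called tenocytes, that pack collagen I into parallel fibres, and the myotendinous junction is the folded surface where muscle fibres hand their force to that collagen. The transcription factors scleraxis (Scx) and mohawk (Mkx) act in tendon formation, and tenomodulin (Tnmd) is a membrane protein that marks mature tenocytes. The small leucine-rich repeat proteins fibromodulin (Fmod), Prelp, chondroadherin (Chad) and keratocan (Kera) bind collagen, fibromodulin in particular controls the thickness of collagen fibrils, and the thrombospondins Comp and Thbs4 form oligomers that link matrix proteins. Cilp2 encodes a matrix protein related to the cartilage intermediate layer protein Cilp.

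Library totals ran from 38482455 to 59785132 reads assigned to genes, and the group medians were 53278181 (Inactive), 46532461 (Active) and 49829192 (Activity Reduction). The libraries fell apart by transcripts of 24 liver genes, with 8 that held more of them (1 Inactive, 5 Active and 2 Activity Reduction mice) and 13 that held fewer (6, 2 and 5). The gap between these sets was 1.14 on the log2 scale. The summed liver transcripts had a median of 316.45 CPM (reads relative to the total of each library) in Inactive mice, 1893 CPM in Active mice and 378 CPM in Activity Reduction mice, and Alb, which encodes albumin, was the most abundant with a mean of 368 CPM. The division followed the mouse numbers in the labels without exception, with the 8 lowest numbers in the set with more and the 13 highest in the set with fewer, and what those numbers stand for is not given in the sources used here. Since 5 of the 8 were Active mice, the division overlaps with the groups. With the division as a covariate in edgeR, the median log2 fold change of the 10 genes was 0.39 for Active against Inactive, -0.47 for Activity Reduction against Inactive and -0.96 for Activity Reduction against Active mice, and none was called. The myosin heavy chain gene Myh4, a marker of fast muscle fibres, had a mean of 80650.1 CPM, as the labelled tissue implies. In whole muscle, fewer tenocytes and less RNA per tenocyte cannot be told apart.

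All 10 genes passed edgeR's filter on low counts, which kept 16129 genes. Levels can be compared between genes only per length of transcript, and the mean normalized count (reads divided by DESeq2's size factor) per kilobase of the canonical transcript was highest for Fmod, at 288, followed by Thbs4 at 247, Prelp at 159 and Scx at 121. Chad had 50.5, Comp 35.9, Kera 21.95, Tnmd 19.8, Cilp2 11.4 and Mkx 1.75 normalized counts per kilobase. The proteoglycan and thrombospondin genes thus spanned most of the range of levels, and the transcription factor Mkx was the lowest of all. The counts of Mkx (2 to 30 reads per library) and Tnmd (2 to 74) were the smallest, so that counting error weighs most on these genes. Kera had 0 reads in 1 library, replicate 5 of the Inactive group, which allows up to 2.81 normalized counts there if reads are independent (3 reads, counting error only). The count was even in 19 of the 20 other libraries for Kera, in 21 of 21 for Mkx and in 19 of 21 for Tnmd. It was also even in 18 of 21 for Fmod and Cilp2 and in 16 for Chad. Comp had 14 even counts of 21, Scx 13, Prelp 12 and Thbs4 9, beside 58.4% of all values above 0 over all genes. Reads may therefore not be independent fragments. The bound for Kera and the counting error of the genes with mostly even counts may be larger than the reads alone give.

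In GRCm39 with the GENCODE annotation, Prelp (chromosome 1, 133837335 to 133857971) and Fmod (133964992 to 133976015) are neighbours, with 107021 bases between them. Cilp2 (chromosome 8, 70333018 to 70340337) and Comp (70826192 to 70834716) lie on the same chromosome, 485855 bases apart. Scx (chromosome 15, 76341563 to 76344281) lies inside an intron of Bop1 on the opposite strand, and Bop1, a gene of ribosome formation, had 1044 to 1739 reads per library. Chad (chromosome 11, 94455696 to 94459953) lies inside introns of Acsf2, also on the opposite strand, which had 118 to 342 reads. Kera (chromosome 10, 97442728 to 97449554) lies inside introns of the noncoding gene 4930473O22Rik, which had 0 reads in every library. Thbs4 lies on chromosome 13 (92888095 to 92931501) and Tnmd on chromosome X (132751720 to 132766326). Mkx shares 201 exonic bases with the noncoding gene Gm2350 on its own strand and 650 with Gm46633 on the opposite strand, and Gm46633 had at most 1 read in any library. Whether the authors counted by strand is not given in the sources used here, so reads of unspliced Bop1 or Acsf2 RNA within Scx or Chad could not be separated. Prelp transcripts share stretches of at least 100 bases with transcripts of 1409 other genes at 90% identity or more, the longest of 355 bases, and part of its count may depend on how such reads were assigned.

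Scleraxis binds the E-box, written CANNTG, and the 250 bases before the start of transcription in RefSeq's table of promoters (built on GRCm38.p6) were searched for it. The table held 7 of the 10 genes, without Comp, Scx and Mkx. The motif reads as a palindrome in its fixed letters, so 1 search covers both strands. It was present before Fmod, Cilp2, Chad and Thbs4 and not in the windows of Prelp, Kera and Tnmd, beside 66.2% of 32851 promoters in the table, so its presence is common and describes the sequence only. The 4 genes that hold it are shown, and they are among the 7 that varied together from mouse to mouse (below), as are Kera and Tnmd, whose windows lack it. Fmod is given as the whole window and the others as the E-box with 10 bases on each side. GENCODE places the gene starts of all of these but Fmod further upstream than RefSeq, so the windows of Cilp2, Chad, Thbs4, Prelp, Kera and Tnmd lie partly or wholly inside the annotated genes, and another start would give another window. Sequences run 5′ to 3′ on the strand of the gene, capitals mark the E-box, and positions are exact matches to GRCm39, chr1:133964742-133964991 (plus strand) for Fmod, chr8:70340183-70340208 (minus) for Cilp2, chr11:94455814-94455839 (plus) for Chad and chr13:92931426-92931451 (minus) for Thbs4.
Fmod: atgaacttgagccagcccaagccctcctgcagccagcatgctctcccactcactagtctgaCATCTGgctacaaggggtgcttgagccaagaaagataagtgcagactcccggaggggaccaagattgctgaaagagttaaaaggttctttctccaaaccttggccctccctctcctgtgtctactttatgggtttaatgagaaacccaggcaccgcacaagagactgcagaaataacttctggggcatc
Cilp2: gcacgggaccCAGTTGgagaaggagg
Chad: gctccgctgcCAACTGcggtcaaggc
Thbs4: ctcttcctggCAAATGggggatcctg

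Fibromodulin transcripts varied from mouse to mouse far more than they varied between groups. The lowest, median and highest normalized counts of Fmod were 125, 541 and 2297 in Inactive mice, 237, 936 and 2729.5 in Active mice, and 359, 466 and 1079 in Activity Reduction mice. The Inactive and Active groups each held both low and high mice, and the Activity Reduction mice spanned a narrower range. Counts above 1000 were found in 3 Inactive, 3 Active and 1 Activity Reduction mice. Over the 21 mice the highest count was 21.8 times the lowest, and the difference between groups held 5.44% of the variance of log2 CPM.

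Chondroadherin, a related leucine-rich repeat protein that also binds integrins, had the widest range among the genes detected in all libraries apart from Tnmd. Chad counts were 10.3, 44.9 and 304.8 (lowest, median, highest) in Inactive mice, 14.4, 113 and 201 in Active mice, and 37.5, 54.8 and 148 in Activity Reduction mice. The highest and the lowest of the 21 mice were thus both Inactive mice, and 1.83% of the variance lay between groups. Kera, best known from the cornea, had 0, 33.7 and 156 normalized counts in Inactive mice, 10.3, 55.2 and 189 in Active mice and 16.4, 25.8 and 40.0 in Activity Reduction mice. The Activity Reduction mice all lay in the lower part of the range of the Active mice. Prelp, in contrast, was even, with 542, 705 and 794 in Inactive mice, 567, 774 and 921 in Active mice and 467, 578 and 823 in Activity Reduction mice. Its highest count was 1.97 times its lowest over the 21 mice.

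Comp, also known as cartilage oligomeric matrix protein, had a spread like that of Fmod, with 16.9, 55.1 and 247 normalized counts in Inactive mice, 17.5, 110.3 and 241 in Active mice, and 27.4, 37.5 and 108 in Activity Reduction mice. Thbs4 varied less, with 331, 609.6 and 1063 in Inactive mice, 472, 962 and 1528 in Active mice and 486, 772 and 908 in Activity Reduction mice. Every group overlapped the others in both genes. Cilp2 had 7.49, 24.97 and 109 normalized counts in Inactive mice, 22.7, 65.8 and 136 in Active mice, and 21.7, 34.5 and 45.6 in Activity Reduction mice. The lowest mouse was again an Inactive mouse, and the highest was an Active mouse.

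The tenocyte marker Tnmd had 5.62, 24.1 and 60.6 normalized counts in Inactive mice, 4.12, 29.0 and 85.1 in Active mice and 1.97, 16.4 and 31.7 in Activity Reduction mice. Its highest count was 43.1 times its lowest. Of the transcription factors, Mkx had 3.57, 12.01 and 18.02 in Inactive mice, 8.24, 18.8 and 30.1 in Active mice and 1.98, 7.30 and 27.5 in Activity Reduction mice. Scx behaved differently from the matrix genes, with 83.6, 139 and 169 normalized counts in Inactive mice, 85.1, 148 and 229 in Active mice, and 139, 216 and 243 in Activity Reduction mice. For Scx the Activity Reduction mice sat towards the top of the range, and 31.7% of the variance lay between groups.

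**Figure D1:**
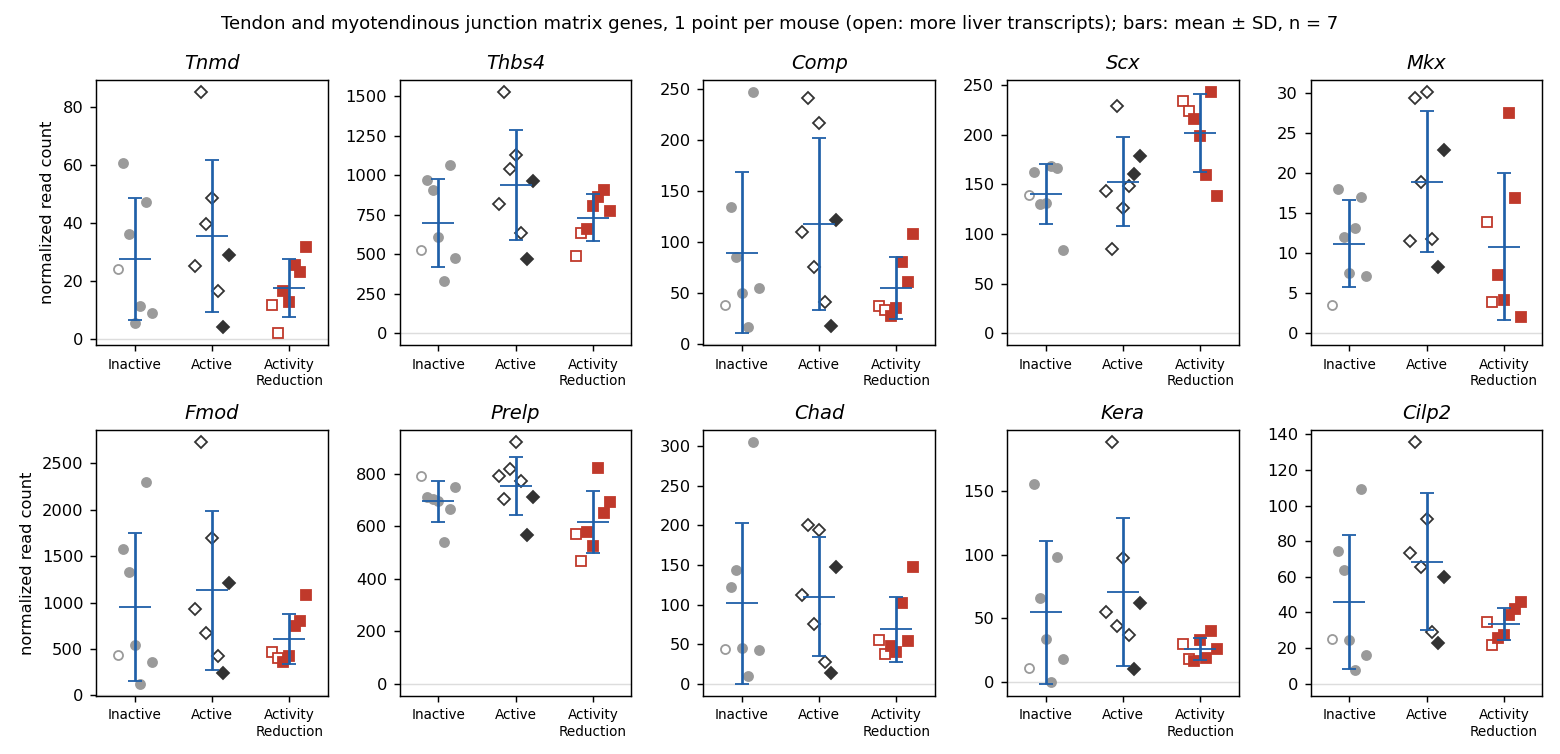
Normalized read count (vertical axis, linear, a separate scale for each gene) of the 10 genes in each of the 21 mice by group. Points are mice, open where the library held more liver transcripts, and bars give the mean ± SD of 7 mice. Fmod, Chad, Comp, Kera and Cilp2 spread widely in Inactive and Active mice and less in Activity Reduction mice, Tnmd spreads widely in all 3 groups, and Prelp spreads little.

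The spread between mice of a group was set against that of all genes through edgeR's estimate of the biological coefficient of variation, whose median over the 16129 genes was 13.8%. It was 81.3% for Kera (percentile 98.3 of all genes), 72.6% for Chad (96.9), 69.1% for Tnmd (96.6), 66.0% for Comp (96.3) and 65.1% for Fmod (96.2). Cilp2 (56.3%, percentile 94.8) and Mkx (53.8%, 94.2) came next. Thbs4 (31.4%, 80.7), Scx (23.4%, 70.2) and Prelp (15.0%, 53.5) stood closer to the typical gene. The Activity Reduction group had the smallest coefficient of variation of the 3 groups in 8 of the 10 genes, where this held for 27.5% of all genes, and the Inactive group had the largest in 7 of the 10 (28.9% of all genes). The 10 genes vary together, so these counts are not independent, and the difference in spread was not tested.

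The same mice were high or low for 7 of the genes, Fmod, Chad, Comp, Cilp2, Kera, Thbs4 and Tnmd, a grouping made after their values were seen. Replicate 2 of the Active group was among the 4 highest of the 21 mice for all 7 genes and was the highest for 5 of them. Replicate 6 of the Inactive group and replicate 4 of the Active group were also among the 4 highest for all 7 genes. At the other end, replicate 5 of the Inactive group was the lowest mouse for 6 of the 7 genes, and replicate 6 of the Active group was among the 4 lowest for all 7. High and low mice therefore occurred within the same training group. For Scx these mice stood elsewhere, since the Active replicate 2, highest for Fmod, ranked 20 of 21, and the Inactive replicate 5, lowest for Fmod, ranked 8.

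**Figure D2:**
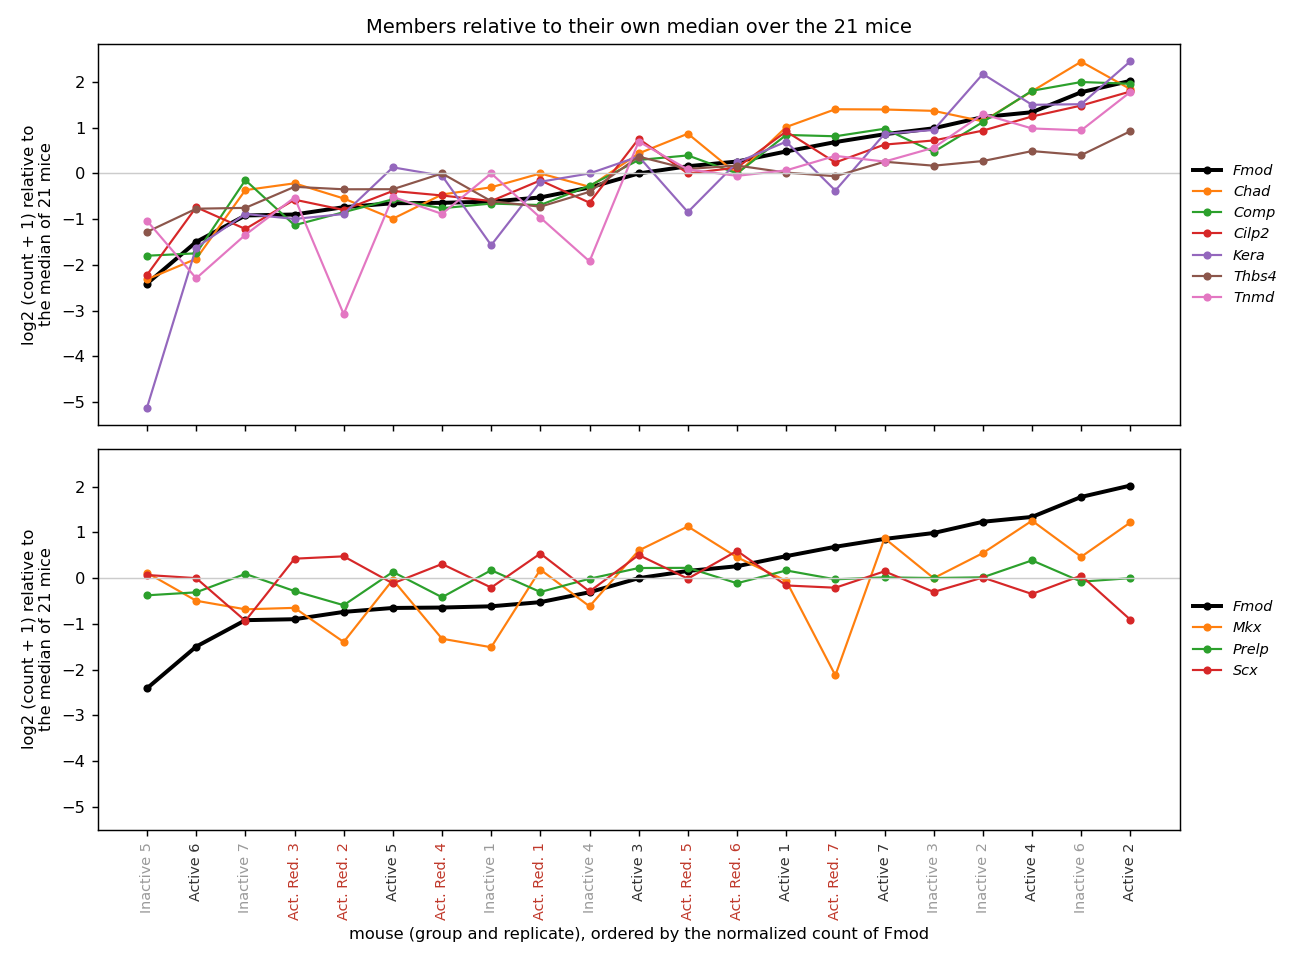
log2(normalized count + 1) of each gene relative to its own median (vertical axis) in the 21 mice, ordered from left to right by the normalized count of Fmod (black line in both panels). The 6 genes of the upper panel climb with Fmod, Mkx follows it loosely, and Prelp and Scx stay near their medians.

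Correlations of log2 CPM over the 21 mice were computed for all 45 pairs of the 10 genes, with permutation tests of 100000 resamples adjusted over the 45 pairs. The adjusted p-value was under 0.05 for Pearson's r in 33 pairs and for Spearman's rho in 31, and the median r was 0.59. The 21 pairs among the 7 genes named above had r between 0.66 and 0.96, with a median of 0.87. Fmod and Comp had r = 0.96 and rho = 0.94, each with a permutation p of 1e-05, the smallest these permutations can give (adjusted p = 2.65e-05 for r and 2.37e-05 for rho), and r was 0.94 without the 2 mice farthest from the median. Fmod and Chad also had r = 0.96 (rho = 0.94, same p-values), with r = 0.95 without the 2 farthest mice. The relation held within each set of libraries, since the median r of these 21 pairs was 0.91 over the 8 libraries richer in liver transcripts and 0.88 over the 13 others. With each group's mean removed, the median was 0.88.

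Of the other 3 genes, Mkx and Prelp followed this pattern less closely and Scx did not detectably. Over its pairs with the 7 genes, Mkx had r of 0.42 to 0.56 (adjusted p under 0.05 in 6 of 7 by Pearson and 7 of 7 by Spearman) and Prelp 0.42 to 0.61 (5 of 7 and 2 of 7). The highest r of Prelp was with Tnmd (0.61, permutation p = 0.00301, adjusted p = 0.00616; rho = 0.55, permutation p = 0.0104, adjusted p = 0.0161), with r = 0.41 without the 2 farthest mice and 0.78 and 0.41 within the sets with more and fewer liver transcripts. Mkx and Fmod had r = 0.48 (permutation p = 0.0283, adjusted p = 0.0411) and rho = 0.59 (permutation p = 0.00537, adjusted p = 0.00929), with r = 0.63 without the 2 farthest mice, 0.79 over the 8 libraries richer in liver transcripts and 0.30 over the 13 others. Prelp and its neighbour Fmod had r = 0.49 (permutation p = 0.0247, adjusted p = 0.0371) and rho = 0.42 (permutation p = 0.0570, adjusted p = 0.0773), with r = 0.44 without the 2 farthest mice, and 0.41 and 0.58 within the 2 sets of libraries. Scx and Fmod had r = -0.28 (permutation p = 0.214, adjusted p = 0.247) and rho = -0.28 (permutation p = 0.229, adjusted p = 0.264), with r = -0.28 without the 2 farthest mice. Within the sets this r was -0.76 over the 8 libraries richer in liver transcripts and 0.02 over the 13 others. Scx and Prelp had r = -0.47 (permutation p = 0.0326, adjusted p = 0.0458) and rho = -0.48 (permutation p = 0.0291, adjusted p = 0.0422), the opposite direction to the other pairs that passed, with r = -0.54 without the 2 farthest mice, -0.48 and -0.49 within the sets and -0.32 with each group's mean removed. Scx and Bop1, the gene around it, had r = 0.40 (permutation p = 0.0734) and rho = 0.43 (permutation p = 0.0551), and r was 0.19 without the 2 mice farthest from the median of Bop1. This pair was chosen after the overlap of their positions was seen, and the p-values are not adjusted.

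**Figure D3:**
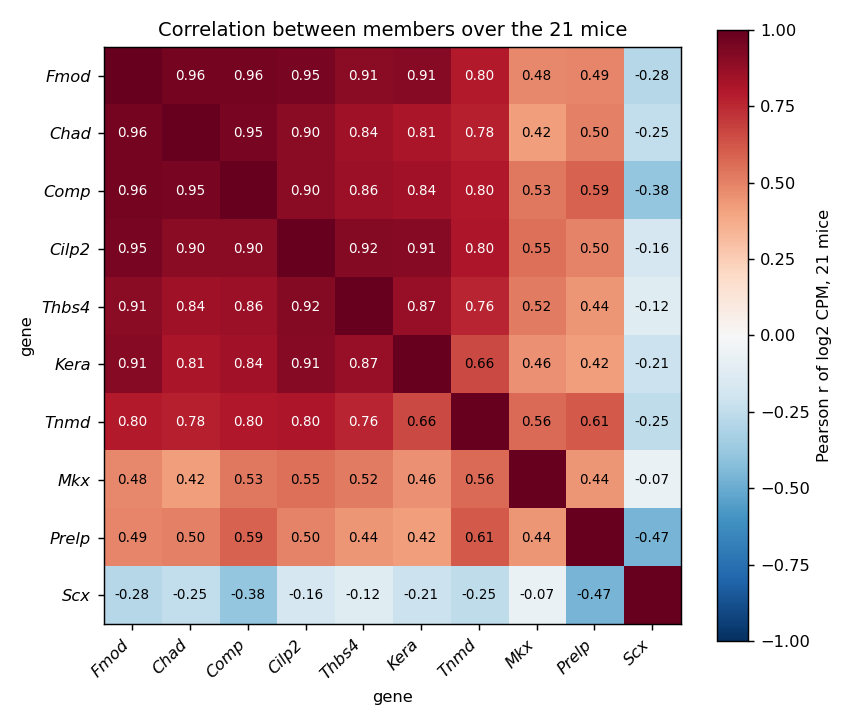
Pearson's r of log2 CPM over the 21 mice for each pair of the 10 genes (both axes; colour runs from -1 in blue to 1 in red). The block of 7 genes from Fmod to Tnmd holds r of 0.66 to 0.96, and the row of Scx holds values below 0.

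Ratios between the covarying genes were examined next. Within groups the SD of log2 CPM was 1.10 for Comp, and the SD of the log2 ratio of Comp to Fmod was 0.31. The same SDs were 1.26 and 0.35 for Chad, 0.91 and 0.34 for Cilp2, 1.45 and 0.64 for Kera and 1.14 and 0.75 for Tnmd. These ratios were steadier than the genes themselves, most so for Comp, Chad and Cilp2. For Thbs4 the ratio to Fmod varied more (0.69) than the gene (0.51), as for Scx (1.28 and 0.36), Prelp (1.06 and 0.22) and Mkx (1.07 and 0.81). The SD of a ratio follows from the SDs of both genes and their r. Fmod itself had an SD of 1.14, so a gene with a far smaller SD gets a more variable ratio even at a high r. These SDs therefore do not show that Thbs4 departed from the shared pattern.

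Among all genes tested, those most like Tnmd were sought by Pearson's r after each group's mean was removed, as a description over 21 libraries that share their depth and tissue. The first 5 of all genes were Cilp2 (0.81), Thbs4 (0.79), Fmod (0.79), Comp (0.78) and Chad (0.78). Kera ranked 35, Prelp 102, Mkx 193 and Scx 11658. The 10 genes outside the group with the highest r were Col12a1 (0.78), which encodes a collagen found on tendon fibrils, Tnc (0.77), which encodes the tendon matrix protein tenascin C, Wif1 (0.75), an inhibitor of Wnt signalling, and Gm51697, Yod1, Hoxb3, Mycn, 2700038G22Rik, Pds5a and Tdp1 (0.68 to 0.74). For Fmod, taken as the reference after its values were seen because it had the highest level, the first 5 of 16128 genes were Cilp2 (0.97), Comp (0.96), Chad (0.96), Thbs4 (0.93) and Kera (0.91), and Tnmd ranked 14. Col12a1 (0.88), Cpxm2 (0.83), Col1a1 (0.82), Cox16 (0.82), Col1a2 (0.82) and Tnc (0.81) followed Kera. Over all genes tested the 5th and 95th percentiles of r with Fmod were -0.37 and 0.35.

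Other lists of genes showed how far this pattern reached. Of 16 tested genes for other matrix proteins abundant in tendon, 7 had an r with Fmod above the 95th percentile, namely Col12a1, Col1a1, Col1a2, Tnc, Angptl7 (0.78), Col11a1 (0.65) and Sparc (0.51), which encodes a collagen-binding protein and was the most abundant of the list (100.2 CPM). Col1a1 and Col1a2 encode the chains of collagen I. Of 4 genes for other thrombospondins and Cilp, 1 did (Thbs2, 0.66). Of 11 other small leucine-rich repeat proteoglycans, 0 did, and decorin (Dcn, 107 CPM), the most abundant, had r = 0.24. Of 14 tested signals and transcription factors of tendon formation, 0 did, with Egr2 the lowest at -0.55. Of 10 genes of the muscle side of the junction, 1 did (Ankrd1, 0.55, a stretch-responsive gene), while Col22a1, the collagen of the junction itself, had 0.30.

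Markers of other cell types were read in the same way. The 3 cartilage genes that passed the filter had r between -0.30 (Col9a1) and -0.07 (Sox9). Their means were 1.66 CPM (Col9a1), 1.58 CPM (Sox9) and 0.19 CPM (Col9a3), beside 1.76 CPM for Comp and 18.1 CPM for Fmod. Of the defining cartilage genes Matn1 and Snorc had 0 reads in all 21 libraries, Acan had 0 reads in 12 of them and Col2a1 had at most 24 reads in any. The summed cartilage markers had medians of 4.04, 3.90 and 3.85 CPM in the Inactive, Active and Activity Reduction groups. Of 8 genes of fibro-adipogenic progenitors and fascia fibroblasts, 0 passed the 95th percentile, and their median r with Fmod was -0.18, with Smoc2, the most abundant at 74.0 CPM, at -0.42. The same count was 0 of 24 for liver genes (median r 0.02), 0 of 6 for endothelial, 0 of 5 for macrophage, 0 of 6 for Schwann cell and 0 of 5 for erythroid genes (median -0.34). It was 1 of 5 for adipocyte genes (Plin1, 0.41) and 1 of 9 for muscle fibre genes (Acta1, 0.35). How much tendon was taken with each muscle was not recorded in the sources used here, and its part in the shared variation was not tested.

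**Figure D4:**
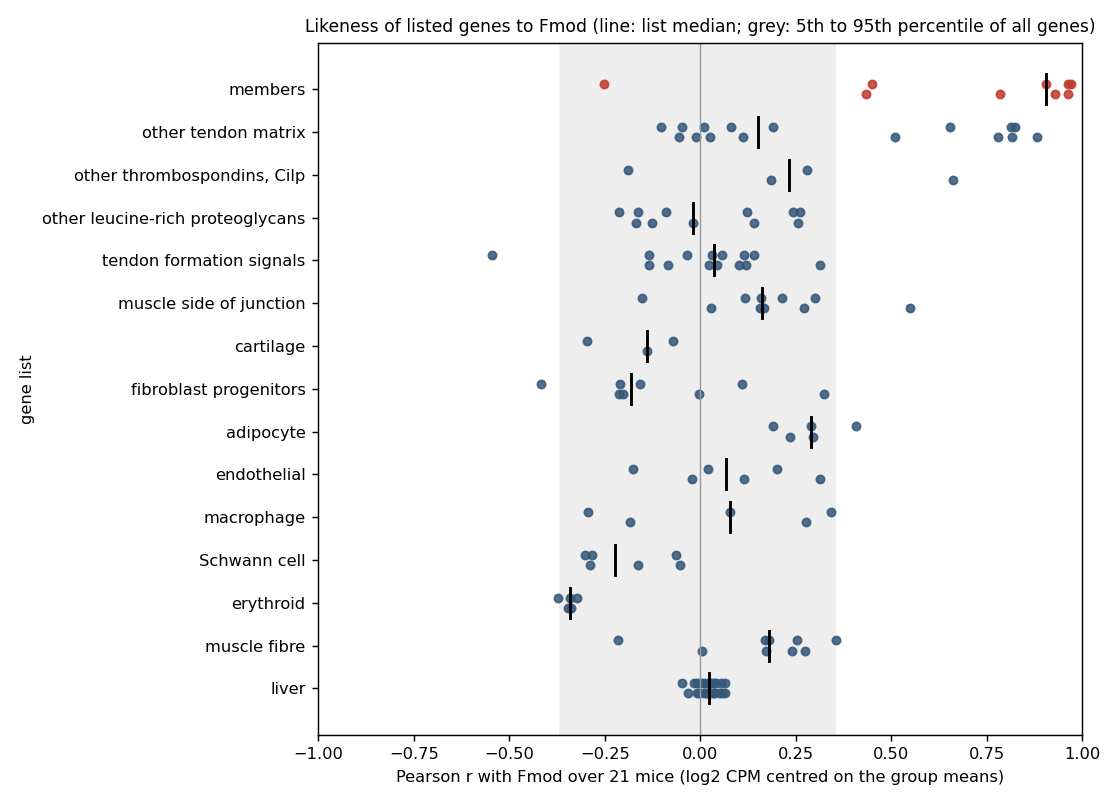
Pearson's r with Fmod over the 21 mice, on log2 CPM centred on the group means (horizontal axis), for the tested genes of each list (vertical axis). Points are genes, black lines are list medians, and the grey band runs from -0.37 to 0.35, the 5th to 95th percentile of all genes. Of the 9 members other than Fmod (red), 8 lie to the right of the band and Scx does not, and 7 of 16 other tendon matrix genes lie to the right of it.

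When Active mice were compared with Inactive mice, all 10 genes had a log2 fold change above 0, where 51.6% of all genes did, and none passed the thresholds for differential expression (adjusted p-value under 0.05 and log2 fold change over 0.25 in either direction). By edgeR's quasi-likelihood test 0 of the 10 genes were called, beside 0% of all genes tested. At an unadjusted p-value under 0.05 there were 0 of the 10, beside 10.9% of all genes, and DESeq2 on the 21 libraries called 0 of the 6 to which it gave an adjusted p-value, beside 0.524% of all genes with one. The median log2 fold change was 0.36, beside 0.0052 for all genes. The largest was 0.75 for Mkx (SE 0.46, adjusted p = 0.570, edgeR) and the smallest 0.11 for Chad (SE 0.57, adjusted p = 0.964, edgeR). Thbs4 had 0.43 (SE 0.24, 95% interval -0.07 to 0.94, adjusted p = 0.5261, edgeR) and Fmod 0.25 (SE 0.52, interval -0.82 to 1.32, adjusted p = 0.900). A shared direction of 10 genes that vary together is not 10 observations, and without replicate 2 of the Active group Fmod was at -0.14, Tnmd at -0.03, Chad at -0.10 and Kera at -0.10, with Thbs4 at 0.27. Within the 13 libraries with fewer liver transcripts (6 Inactive and 2 Active mice) the fold changes of 8 of the 10 genes were below 0, all but Scx and Mkx, with Fmod at -0.51.

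When Activity Reduction mice were compared with Inactive mice, 8 genes had a log2 fold change below 0, where 47.8% of all genes did, and Scx and Thbs4 had one above 0. None of the 10 genes passed the thresholds, beside 0.0124% of all genes, and 1 of 10 had an unadjusted p-value under 0.05, beside 7.73% (4.19% with higher expression). This was Scx, with a log2 fold change of 0.53 (SE 0.18, 95% interval 0.16 to 0.90, p = 0.00712, adjusted p = 0.450, edgeR), and an exact permutation test of the normalized counts gave p = 0.00991 (two-sided, 0.551 adjusted over all genes). The Activity Reduction mice were above the Inactive median in 6 of 7 cases, but the groups overlapped. The log2 ratio of the Scx means was 0.45 within the 13 libraries with fewer liver transcripts (5 and 6 mice) and 0.72 in those with more (2 and 1). Fmod had a log2 fold change of -0.63 (SE 0.52, adjusted p = 0.841, edgeR), Comp -0.70 (SE 0.53, adjusted p = 0.821), Kera -1.08 (SE 0.64, adjusted p = 0.745), and Thbs4 0.07 (SE 0.24, adjusted p = 0.981). Single mice moved these values, to -0.25 for Fmod and -0.21 for Comp without Inactive replicate 6 and to -0.55 for Kera without Inactive replicate 2. Directions turned for Thbs4 (-0.048 without Inactive replicate 5), Mkx (0.13 without Activity Reduction replicate 7) and Chad (0.019 without Inactive replicate 6). The other genes kept their direction whichever mouse was left out. The median of the 10 was -0.50, beside 0.0057 for all genes.

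The comparison of Activity Reduction with Active mice shares its samples with both comparisons above. Of the 10 genes, 9 had a log2 fold change below 0, all but Scx, where 50.2% of all genes did. Again 0 of 10 passed the thresholds by edgeR, beside 0% of all genes. At an unadjusted p-value under 0.05 there were 4 of 10, beside 13.3%, with Scx above 0 (as in 6.89% of all genes) and Prelp, Kera and Cilp2 below (6.44%). Kera had a log2 fold change of -1.45 (SE 0.65, p = 0.0360, adjusted p = 0.339, edgeR; exact permutation p = 0.0221), and all 7 Activity Reduction mice lay below the Active median. All 7 Activity Reduction mice also lay below the Active median for Cilp2 (-1.02, SE 0.45, adjusted p = 0.335, edgeR), Comp (-1.09, SE 0.53, adjusted p = 0.378, edgeR) and Thbs4 (-0.36, SE 0.24, adjusted p = 0.539). Most of the 10 genes vary together, so the counts of genes in this comparison are not independent. The share of all genes with all 7 mice below that median is not given here. By edgeR's test Prelp, the evenest gene, had -0.30 (SE 0.11, adjusted p = 0.256, edgeR), and Scx had 0.40 (SE 0.18, adjusted p = 0.343). Tnmd had -0.99 (SE 0.56, adjusted p = 0.454), Fmod -0.88 (SE 0.52, adjusted p = 0.479), Mkx -0.79 (SE 0.46, adjusted p = 0.477) and Chad -0.66 (SE 0.58, adjusted p = 0.644). Without Active replicate 2, Fmod was at -0.50, Tnmd at -0.62, Thbs4 at -0.21 and Kera at -0.99, and without Activity Reduction replicate 5 Mkx was at -1.22. The median of the 10 was -0.83, beside -0.00065 for all genes.

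The values of this comparison differed between the sets of the liver division. In the 8 libraries with more liver transcripts (2 Activity Reduction and 5 Active mice) the log2 ratio of the means was -1.57 for Fmod, -1.94 for Comp, -1.83 for Kera and -1.50 for Cilp2. In the 13 libraries with fewer (5 and 2 mice) it was -0.09 for Fmod, -0.15 for Comp, -0.45 for Kera and -0.21 for Cilp2, with Tnmd at 0.40. Prelp and Thbs4 also turned, from -0.63 and -0.88 in the set with more to 0.03 and 0.16 in the set with fewer. Each set holds only 2 mice of 1 group, and the difference between the sets was not tested. Fitted on all 21 libraries, DESeq2 gave Kera about the same log2 fold change as edgeR, with an adjusted p-value of 0.309. Fitted on the 14 libraries compared, it gave the same log2 fold change with an adjusted p-value of 0.0375. The fit on 14 libraries did not call the other 7 genes for which it gave an adjusted p-value. Of all genes with an adjusted p-value in that fit, 1.03% were called. In none of the 3 comparisons did a gene of the group separate the groups without overlap, beside 0.254%, 0.118% and 0.291% of all genes in the order given. In the edgeR test of any difference among the 3 groups, the smallest adjusted p-value of the 10 was 0.299 (Scx), followed by Prelp (0.385), and 0% of all genes passed.

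**Figure D5:**
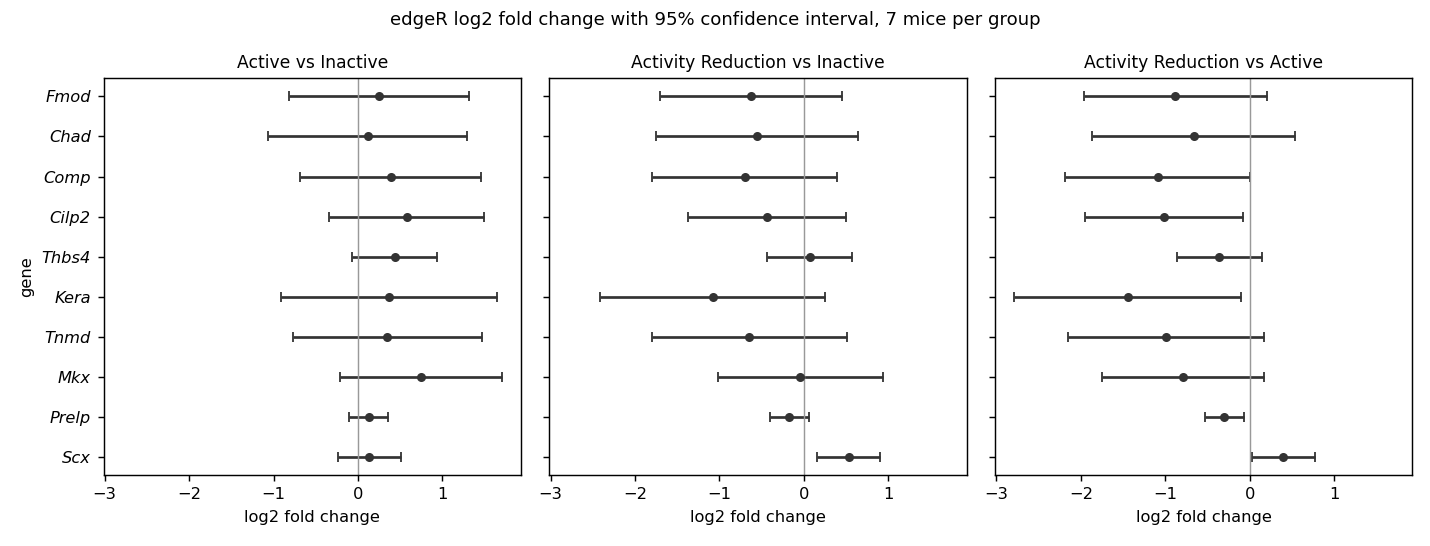
edgeR log2 fold change (horizontal axis; points) with its 95% confidence interval (bars) for each of the 10 genes in the 3 comparisons of groups, 7 mice per group. In the right panel 9 of 10 points lie left of 0, and the intervals of Prelp and Scx are the shortest.

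Other genes of tendon and junction were compared in the same fit. Of the 16 tested genes for other tendon matrix proteins, 0 passed the thresholds in any comparison. In the Active against the Inactive group 6 had an unadjusted p-value under 0.05 with higher expression (6.18% of all genes had), and the median log2 fold change was 0.32. In the Activity Reduction against the Active group 11 of 16 had one with lower expression (6.44% of all genes), with a median of -0.45. The lowest was Col11a1 (-0.98, adjusted p = 0.333, edgeR) and the highest Fibin (0.22, adjusted p = 0.773), and Col1a1 had -0.68 (adjusted p = 0.154). Of 11 other small leucine-rich repeat proteoglycans 4 had a p-value under 0.05 with lower expression in this comparison, with a median of -0.22 and Tsku lowest (-0.82, adjusted p = 0.406). Of the 4 other thrombospondins and Cilp 2 did, with Thbs3 at -0.75 (adjusted p = 0.105). Of 14 signals and transcription factors of tendon formation 3 did, with a median of -0.03 and Egr2 lowest (-0.49, adjusted p = 0.370). The 10 genes of the muscle side of the junction had a median of -0.01, and 1 had a p-value under 0.05 with lower expression. Fibroblast markers had similar values beside the tendon matrix genes, with 6 of 8 at a p-value under 0.05 with lower expression and a median of -0.31 (Dpp4 lowest, -0.68, adjusted p = 0.173), as did 3 of 5 macrophage markers (Csf1r -0.74, adjusted p = 0.105) and 3 of 6 endothelial markers (Kdr -0.42, adjusted p = 0.112). The summed fibroblast markers had medians of 166, 181 and 146 CPM in the Inactive, Active and Activity Reduction groups, and the 10 tendon genes 44.2, 63.4 and 40.9 CPM. In the same order of groups, Schwann cell markers had medians of 57.1, 64.5 and 69.6 CPM. Erythroid markers had 60.3, 74.2 and 67.6 CPM, and adipocyte markers 16.1, 16.1 and 15.1 CPM. In the Activity Reduction against the Active group the median log2 fold changes of these lists were -0.10, -0.0011 and -0.44. In each of these lists 0 genes had an unadjusted p-value under 0.05 by edgeR in that comparison. The part of these cell types in the values of the 10 genes was not tested.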

How the data were processed

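RNA sequencing counts were analysed for the gastrocnemius of 21 mice. Per the paper's methods and the labels, the authors used fastp for trimming, STAR for alignment of the read pairs to GRCm39 and featureCounts for assignment to genes. The deposited values are raw read counts. Versions, annotation and the strand setting are not given in the sources used here. Another deposited table is called normalized, but all its 857913 values equalled the raw counts, and it was not used. Of the counts from 1 to 9, 67.5% were even, and the number of independent fragments behind a low count is not known.

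Groups were taken from the labels. Counts were filtered (filterByExpr), normalized by TMM and tested with edgeR 4.0.16 quasi-likelihood models in R 4.3.3, with the 21 libraries in 1 fit, no covariate and Benjamini-Hochberg adjustment over 16129 genes. Genes were called at an adjusted p-value under 0.05 and a log2 fold change over 0.25 in either direction. Normalized counts were divided by DESeq2 1.42.0 size factors, and log2 CPM used a prior count of 2. Exact permutation tests used all 3432 splits of 7 against 7 mice. Libraries were divided at the largest gap in the mean log2 CPM of 24 liver genes. Depth was 38482455 to 59785132 reads per library. Positions came from GENCODE vM39 and transcript matches from blastn. The fit was tested on simulated data. Nothing in the sources says that mice of a group came from separate litters or cages, so p-values measure the spread between these mice.

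The 10 genes and all gene lists were chosen with earlier results of these data known. The genes named are the 10 members and the 10 genes most like Tnmd. From some lists the most abundant gene, or a gene with the largest or smallest fold change, is also named. Others, such as those most like Fmod, were named after their values were seen. Alternatives were other size factors, no filter, DESeq2 on 21 and on 14 libraries, the liver division or the replicate number as a covariate, and leaving out each mouse. The 13 libraries with fewer liver transcripts were fitted alone as an alternative chosen after seeing the data.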

Additional observations from a re-analysis of the deposited data

How the results depend on the processing

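Of 210 log2 fold changes of the 10 genes under settings other than leaving out 1 mouse, 178 kept their direction and their side of the threshold, 19 kept their direction but had no adjusted p from DESeq2, 12 turned and 1 passed the threshold. The last was Kera in the Activity Reduction against the Active group by DESeq2 on 14 libraries, at -1.45 with an adjusted p of 0.0375. Its adjusted p was 0.339 by edgeR and 0.309 by DESeq2 on 21 libraries. Ratios of group means in CPM kept the direction of all 30 normalized-count ratios. DESeq2 on 21 libraries gave none of the 10 genes an adjusted p in the Activity Reduction against the Inactive group. The number of genes called among all genes depended on the tool. It was 0, 2 and 0 by edgeR for Active against Inactive, Activity Reduction against Inactive and Activity Reduction against Active (1754, 1247 and 2149 at an unadjusted p under 0.05), 62, 21 and 115 by DESeq2 on 21 libraries and 77, 43 and 139 by DESeq2 on the 14 libraries compared. With RLE size factors in edgeR the last 2 numbers were 0 and 1. In the Activity Reduction against the Inactive group it was 1 with the liver division as a covariate, against 0 in the 13 libraries with fewer liver transcripts. For any difference among groups, edgeR called 0 genes and the DESeq2 likelihood ratio test 251. The cause was not tested.

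In the 13 libraries with fewer liver transcripts the Active against Inactive values turned for Tnmd (-0.77), Thbs4 (-0.016), Comp (-0.50), Fmod (-0.51), Prelp (-0.083), Chad (-0.46), Kera (-0.77) and Cilp2 (-0.25), and the Activity Reduction against Active values for Tnmd (0.40), Thbs4 (0.15) and Prelp (0.027). There only 2 Active mice remain. The r of Scx with Fmod turned to 0.0245 in these libraries, and Mkx in the Activity Reduction against the Inactive group turned to 0.0093 with the liver division as a covariate.

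With each mouse left out in turn, the genes called ranged from 0 to 1, 0 to 6 and 0 to 9 in the 3 comparisons, the highest being without Inactive replicate 7, Active replicate 3 and Activity Reduction replicate 7, and none of the 10 genes was called. Of 630 values 19 turned. In the Active against the Inactive group the range was -0.027 to 0.67 for Tnmd, -0.14 to 0.64 for Fmod, -0.10 to 0.69 for Chad and -0.10 to 0.90 for Kera, lowest without Active replicate 2. Fmod ranged from -0.83 to -0.25 in the Activity Reduction against the Inactive group and from -1.08 to -0.50 in the Activity Reduction against the Active group. In the Activity Reduction against the Inactive group it was -0.048 to 0.20 for Thbs4, -0.47 to 0.13 for Mkx and -0.86 to 0.019 for Chad. With the replicate number as a block the genes called were 0, 4 and 0, and none of the 10 genes changed its call. In the Activity Reduction against the Inactive group this block moved the median of the 10 from -0.50 to -0.23. Fmod was then at -0.32, Kera at -0.58, Chad at -0.28 and Cilp2 at -0.15, while Scx stayed at 0.53. The replicate numbers share no stated litter, cage or day. Of 21 libraries 3 correlated best with a library of their own number, so the numbers were not treated as pairs.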

Other observations

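Mylpf, which encodes the regulatory light chain of fast myosin, had a mean of 2.68 CPM and at most 179 reads in any of the 21 libraries, beside 80650.1 CPM for the fast myosin heavy chain gene Myh4 and 26014.1 CPM for the skeletal actin gene Acta1. The range over the libraries was 1.77 to 3.59 CPM.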
